A study of Arabidopsis thaliana with 6 samples.

Results

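Auxin is the growth hormone that directs cell expansion, leaf development and tropic growth in plants. It is made from tryptophan, the last step being catalysed by the YUCCA (YUC) flavin monooxygenases, and it is inactivated in part by GH3 enzymes, which join it to amino acids. Inside the cell, auxin binds the TIR1/AFB receptors, and the Aux/IAA repressor proteins are then degraded, which frees the ARF transcription factors. Many Aux/IAA, GH3 and SAUR (small auxin up RNA) genes are themselves early targets of the hormone, so their transcripts are widely used as a readout of auxin response.

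The transcripts of this pathway were followed in leaves of wild-type Columbia plants, 4 weeks old, on 6 Affymetrix ATH1 arrays. Of these, 3 came from untreated controls in normoxia at 0 h and 3 from plants kept under water for 48 h in the light (light submergence). Each of the 3 biological replicates of a condition was collected from 3 plants. No mutant or transgene was involved, the controls were harvested before the treatment, and the submerged plants were therefore 48 h older and, by the study's methods, also in dimmer light.

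Members were the probe sets to which the array's annotation gives 1 gene with a symbol of the SAUR, IAA, ARF, PIN, GH3, LAX, AUX, YUC, AFB or TIR series and a number. This rule found 15 genes among 13513 probe sets with 1 gene and 22746 probe sets in all. The reference gene table holds 96 genes with such a symbol, and 8730 probe sets had no gene name. The members are thus a small part of these families. They were 7 Aux/IAA genes, 4 YUC genes and 4 GH3 genes, each with 1 probe set. It found 0 SAUR genes, 0 ARF genes, 0 genes of the TIR1/AFB receptors and 0 PIN, AUX or LAX transport genes, so neither the carriers nor most of the early response could be described from members. The values are log2 signals, and background was set at the 40th percentile of each array, which was 6.17 to 6.39 in the controls and 5.55 to 5.84 after submergence.

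Most of the members were dim in these leaves, which says nothing of the family genes without a named probe set. Of the 15 members, 8 were above background on no array, 7 on at least 1 array, and only IAA18 and YUC2 on all 6. On any single array, 3 to 5 members were above background. After 48-h light submergence IAA18 and GH3.3 rose and GH3.9 fell, while 12 members missed the threshold, which was an adjusted p under 0.05 from limma and at least a 1.5-fold difference. The calls of IAA18 and GH3.3 held under all 12 alternative fits, and that of GH3.9 under 5 of 11. The 12 include a filter on dim probe sets, which kept GH3.3 only through its submerged arrays and dropped GH3.9. That setting therefore adds no support for GH3.3. The share that passed was 20%, against 42.6% of all 22746 probe sets. By direction, 18.3% of all probe sets were higher and 24.3% lower. The control and submerged arrays did not overlap for 3 members, or 20%, against 54.7% of all probe sets. The p-values set the difference between the groups against the spread of the 3 arrays within each, moderated over all probe sets. The number of arrays limits the precision, and the dim members had wide errors. The standard error of the log2 fold change was 0.19 to 1.44 over the 15 members with a median of 1.02, against a median of 0.37 over all probe sets and of 1.0 over the 8208 probe sets above background on fewer than 3 arrays. Of those 8208 probe sets 8.87% passed the test (7.38% as lower), and of the 12 members among them GH3.9 alone passed, which is 8.33%. Among the 14538 brighter probe sets 61.6% passed, but GH3.3 belongs there only through its submerged arrays, so no member count is set beside it. The median log2 fold change of the members was -0.39, beside -0.26 for all probe sets, and after quantile normalization it was 0.09, beside 0.02 for all.

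**Figure D1:**
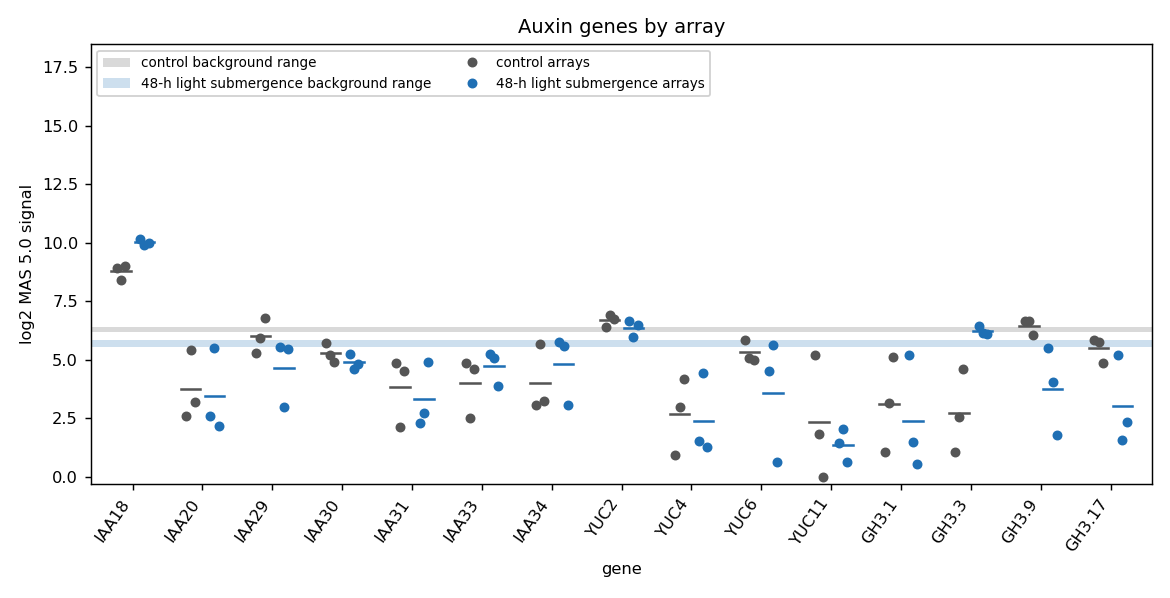
Log2 MAS 5.0 signal (vertical axis) of the 15 auxin genes (horizontal axis) on each control array (grey points) and each array of 48-h light submergence (blue points), with the mean of each group as a bar and the range of the background level in each group as a band. IAA18 stands clear of the bands in both groups, GH3.3 reaches its band only after submergence, and most others lie below; heights are not comparable between genes.

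Among the Aux/IAA genes, which encode the repressors of auxin response, IAA18 (At1g51950) was the 1 member of 7 that changed. Its log2 signal was 8.94, 8.42 and 9.03 on the control arrays and 10.15, 9.92 and 10.01 on the submerged arrays. Every submerged array was above every control array, and the spread within a group, 0.61 and 0.22, was smaller than the distance between the groups. IAA18 rose 2.35-fold, with a log2 fold change of 1.23 ± 0.19 (SE; 95% interval 0.82 to 1.65, adjusted p = 0.000322 from limma). Relative to the median of all probe sets the log2 difference was 1.49, and after quantile normalization the fitted log2 fold change was 1.17. The call held under all 12 alternative fits (6 other settings and the omission of each array), with log2 fold changes of 1.05 to 1.35 and adjusted p of 0.000338 to 0.00982 from limma.

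The other 6 Aux/IAA genes did not pass the test. IAA29, known as a gene that responds to shade, had log2 signals of 5.31, 5.95 and 6.77 in the controls and 5.54, 2.97 and 5.48 after submergence. It was above background on 1 control array and on no submerged array, and the groups overlapped. Its log2 fold change was -1.35, with a 95% interval of -3.15 to 0.45 (adjusted p = 0.214 from limma). IAA20, IAA30, IAA33 and IAA34 belong to the Aux/IAA proteins that lack the degron by which auxin triggers their degradation. IAA20, IAA30 and IAA33 were above background on no array. IAA34 exceeded it on 1 submerged array, with 3.08, 5.68 and 3.22 in the controls and 5.77, 5.57 and 3.09 after submergence. The lower and upper values occurred in both groups, and its log2 fold change was 0.82 with an interval of -1.48 to 3.11. IAA30 had the narrowest interval of these dim genes. Its log2 signals were 5.74, 5.20 and 4.91 in the controls and 5.25, 4.6 and 4.83 after submergence, with a log2 fold change of -0.39 (interval -1.76 to 0.97, adjusted p = 0.655 from limma), which turned to 0.09 after quantile normalization. IAA20, at 2.59, 5.44 and 3.20 against 2.61, 5.52 and 2.19, and IAA33, at 4.88, 2.52 and 4.59 against 5.24, 5.06 and 3.88, overlapped between the groups as well. IAA31, a further member of this family, was above background on no array and had a log2 fold change of -0.54 with an interval of -2.96 to 1.88.

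None of the 4 YUC genes passed the test by limma, and 0 of them had an unadjusted p under 0.05. Over all probe sets 42.6% passed. However, 3 of the 4 YUC genes were above background on fewer than 3 arrays, where 8.87% of probe sets passed. The YUC enzymes use molecular oxygen to turn indole-3-pyruvate into auxin. YUC2 (At4g13260) was the 1 gene of the 4 that was above background on all 6 arrays. Its log2 signal was 6.41, 6.92 and 6.75 in the controls and 6.64, 5.96 and 6.47 after submergence. The groups overlapped, and the difference was smaller than the range of either group, 0.51 and 0.68. The log2 fold change was -0.34 ± 0.38 (SE; adjusted p = 0.526 from limma) with a 95% interval of -1.18 to 0.51, and it was 0.21 after quantile normalization. YUC2 thus had the narrowest interval of the 4 YUC genes.

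YUC6 was above background on 1 submerged array only. Its log2 signals were 5.85, 5.09 and 5.01 in the controls and 4.51, 5.63 and 0.63 after submergence. The low mean after submergence came from replicate 3, without which the log2 fold change was -0.25 in place of -1.73. YUC4, which acts in young leaves and flowers, and YUC11, known from seed development, were above background on no array. YUC4 was at 0.92, 3.0 and 4.16 against 1.51, 4.42 and 1.27. YUC11 was at 5.19, 1.85 and 0.00 against 1.44, 2.06 and 0.63, so that a single control array carried its higher mean. The intervals of YUC4, YUC6 and YUC11 spanned 0, the widest from -3.92 to 1.98 for YUC11.

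**Figure D2:**
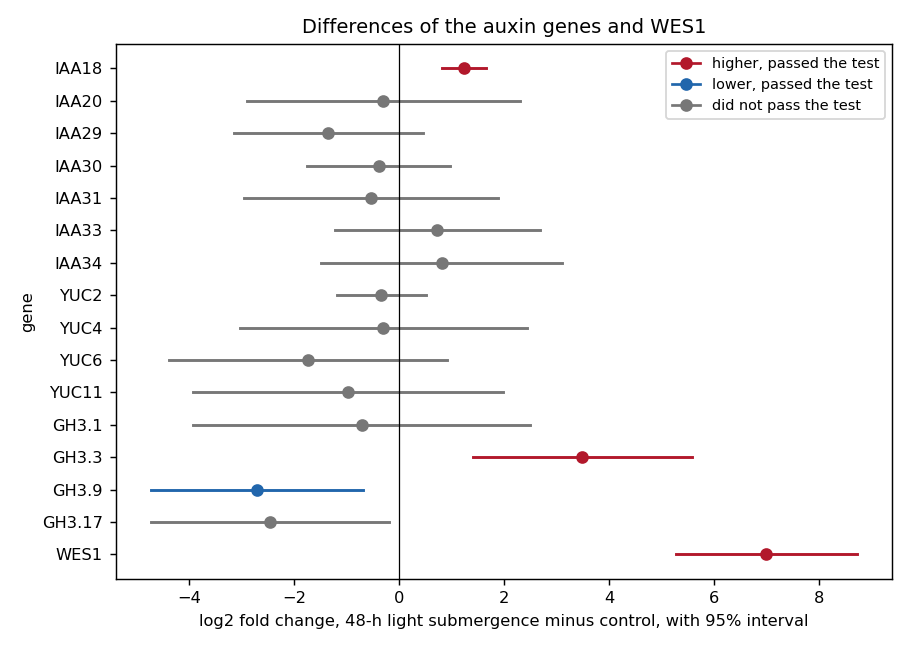
Log2 fold change of 48-h light submergence minus control (horizontal axis; point) with its 95% interval from limma (line) for the 15 auxin genes and WES1 (vertical axis), coloured by whether and in which direction the gene passed the test. The interval of IAA18 is the narrowest, 0.82 to 1.65, and those of 11 of the 12 members that did not pass include 0, GH3.17 being the exception.

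The GH3 genes, whose enzymes conjugate auxin to amino acids, differed among themselves. Among the 4 members 1 was higher and 1 lower, and the remaining 2 stayed outside the threshold, where 18.3% of all probe sets were higher and 24.3% lower. GH3.3 (At2g23170), a classical auxin-induced gene, had log2 signals of 1.08, 2.56 and 4.59 in the controls and 6.45, 6.14 and 6.10 after submergence. It was above background on no control array and on all 3 submerged arrays, and the groups did not overlap. The fitted log2 fold change was 3.49 ± 0.94 (SE; 95% interval 1.4 to 5.58, adjusted p = 0.0114 from limma). The submerged mean of 6.23 lay below the control background of 6.31, so no lower bound of the fold above 1 can be given on the deposited scale. After quantile normalization, where the background is the same on every array, GH3.3 was at least 1.4-fold higher. The call held under all 12 alternatives, with an adjusted p of up to 0.0424 from limma. The filter on dim probe sets, among these, kept GH3.3 only through its submerged arrays and adds no support. The log2 fold change was 1.36 when an offset of 32 was added to the signal.

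GH3.9 (At2g47750) went the other way. The controls read 6.66, 6.67 and 6.07 (log2) and the submerged samples 5.50, 4.05 and 1.77. It exceeded background on 2 control arrays and on no submerged array, and the groups did not overlap, with the lowest submerged value on replicate 3. GH3.9 was at least 1.65-fold lower on the deposited scale (fitted log2 fold change -2.70 ± 0.91, SE; adjusted p = 0.0332 from limma). On the deposited scale the background itself was lower after submergence, at a mean of 5.74 against 6.31 in the controls, which enters this bound. After quantile normalization, where the background is the same on every array, the bound was 1.14-fold. The call was lost after quantile normalization (adjusted p = 0.0726 from limma), without the variance trend (adjusted p = 0.0742 from limma), and on omitting any 1 control array or the third submerged array (adjusted p of up to 0.0958 from limma). With the 50th percentile as background no bound remained.

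GH3.17, whose enzyme favours glutamate as the partner of auxin, was above background on no array. Its log2 signals were 5.85, 5.75 and 4.88 in the controls and 5.20, 1.56 and 2.33 after submergence. Its log2 fold change was -2.46 (interval -4.73 to -0.20, adjusted p = 0.0751 from limma), and without submergence replicate 1 it was -3.55 with an adjusted p of 0.0113 from limma. GH3.1 was at 1.08, 3.15 and 5.12 against 5.19, 1.49 and 0.53, below background throughout, and showed no separation of the groups.

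A further gene of this family stands in the annotation under another symbol and is not a member by the rule. WES1 (At4g27260), listed in the reference gene table as GH3.5, encodes an enzyme that acts on both auxin and salicylic acid. On the control arrays it was at 3.45, 2.37 and 6.24 (log2) and on the submerged arrays at 10.62, 11.12 and 11.31. The lowest submerged array lay far above the highest control array, which was the 1 control array above background. WES1 rose at least 25.8-fold when the control arrays below background were set to that level, and at least 13.9-fold with the 50th percentile as background (fitted log2 fold change 7.0 ± 0.78, SE; adjusted p = 3.89e-05 from limma). It was the 1 gene of these families found under another symbol, and its call held under all 12 alternatives. Among these, the filter on dim probe sets kept WES1 through its submerged arrays and adds no support.

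**Figure D3:**
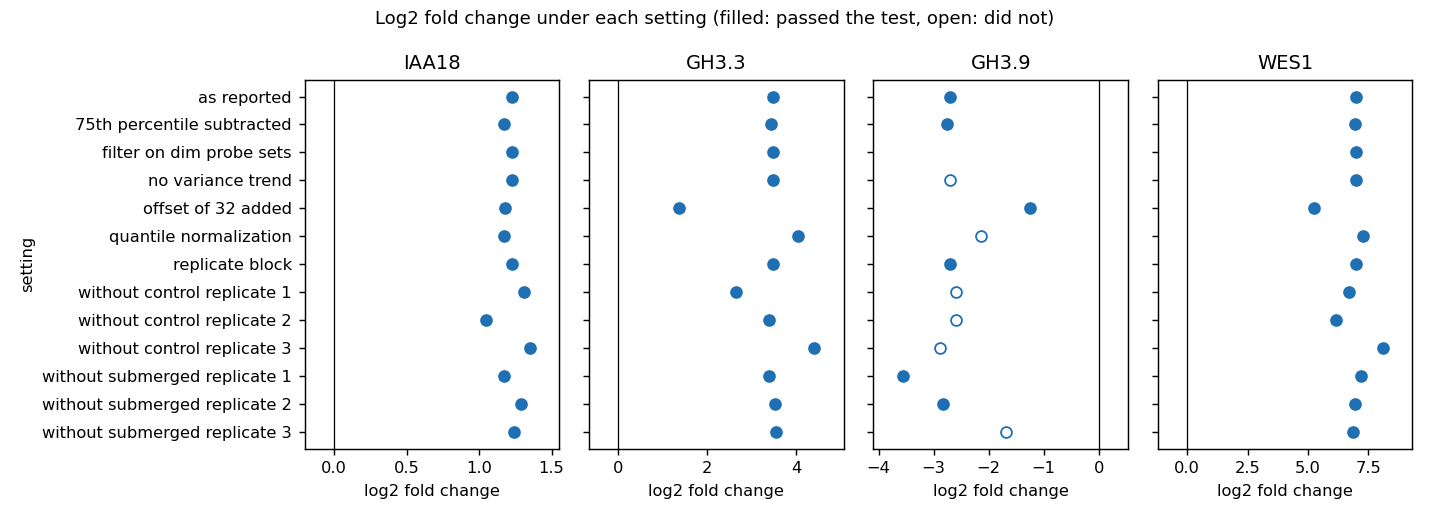
Log2 fold change (horizontal axes, on separate scales) of IAA18, GH3.3, GH3.9 and WES1 under the reported setting and each alternative (vertical axis), filled where the gene passed the test and open where it did not. IAA18, GH3.3 and WES1 are filled throughout, while GH3.9 is open under 6 alternatives and was not tested after the filter on dim probe sets. That filter kept GH3.3 and WES1 through their submerged arrays.

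Beyond these families, 12 of 97 listed genes of auxin signalling, transport, synthesis, turnover and downstream response had a probe set with a gene name of its own. The test was passed by 5 that rose and 2 that fell, a share of 58.3% against 42.6% of all probe sets. At a limit of 2-fold 3 of the 12 passed, or 25%, against 34% of all probe sets, so that the order of the shares depended on the limit. The median log2 fold change was -0.13, and after quantile normalization 0.36. Of 23 listed genes of tryptophan and auxin synthesis, 1 had a named probe set. It was At2g04400, annotated as indole-3-glycerol phosphate synthase, an enzyme of the tryptophan route from which auxin is made. Its log2 signals were 10.38, 10.54 and 10.37 in the controls and 12.81, 12.69 and 12.55 after submergence, with no overlap and little spread in either group. The increase was 4.78-fold, or 2.26 ± 0.14 (SE) on the log2 scale (adjusted p = 9.68e-07 from limma).

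EXPA8, an expansin of the kind that loosens cell walls during growth, went furthest down. Its log2 signals were 11.32, 12.07 and 11.78 in the controls and 5.28, 4.72 and 5.80 after submergence, where it was above background on no array. EXPA8 was at least 63.1-fold lower, and at least 30.4-fold with the 50th percentile as background (log2 fold change -6.46, adjusted p = 1.36e-07 from limma). HAT2, a homeodomain-leucine zipper gene induced by auxin, rose 1.68-fold, from 9.16, 8.79 and 8.95 to 9.38, 10.07 and 9.70 (adjusted p = 0.0106 from limma). Its call was lost without the variance trend (adjusted p = 0.0611 from limma) and, at a log2 fold change of 0.57, just under the 1.5-fold limit without submergence replicate 2. At1g56220, annotated as a dormancy/auxin associated protein, rose 2.84-fold. With EXPA8 and HAT2 it made 3 of 5 downstream genes with a named probe set, or 60%, against 42.6% of all probe sets. The others did not pass: LBD16 (log2 fold change -0.12, adjusted p = 0.914 from limma) and LBD29 (-0.18, adjusted p = 0.907 from limma). LBD16 was above background on 1 control array only and LBD29 on no array. SKP2A, an F-box protein that binds auxin, rose 1.80-fold (adjusted p = 0.00397 from limma).

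Of the 4 listed genes of auxin turnover with a named probe set, 1 rose and 1 fell, a share of 50%, near the 42.6% of all probe sets. At1g14130, annotated as a 2-oxoglutarate and Fe(II)-dependent oxygenase-like protein, went from 7.29, 7.57 and 6.94 to 8.18, 8.43 and 8.08, an increase of 1.95-fold at an adjusted p of 0.00906 from limma. UGT74D1, a glucosyltransferase that accepts auxin, was 1.77-fold lower (adjusted p = 0.0444 from limma). Its groups overlapped, at 8.43, 7.61 and 8.16 against 7.12, 6.96 and 7.64, and its call was lost under 6 alternatives, among them quantile normalization and the omission of control replicate 1 or 3 or submergence replicate 1 or 2.

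**Figure D4:**
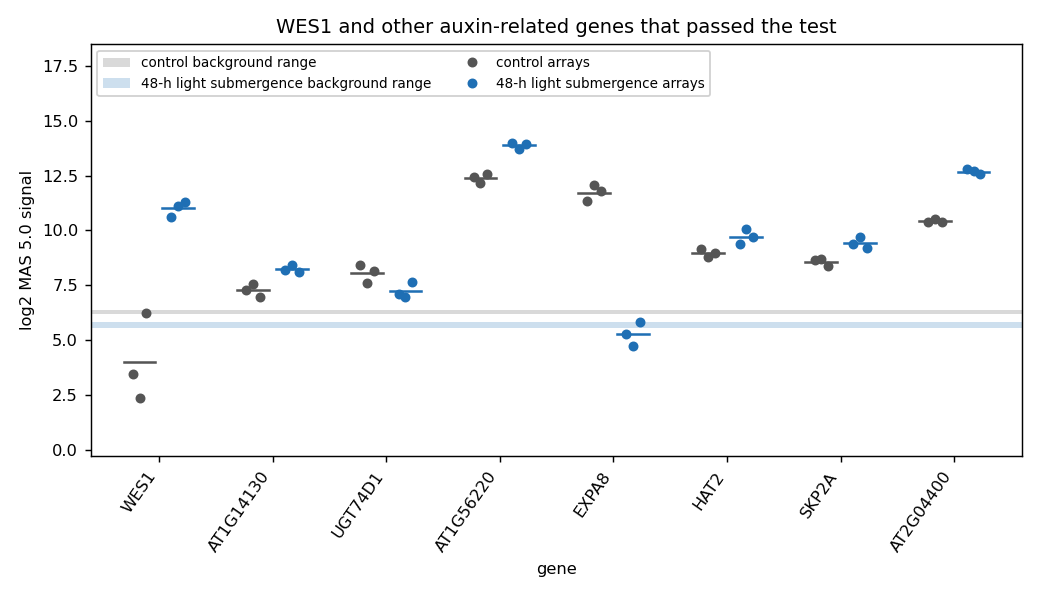
Log2 MAS 5.0 signal (vertical axis) of WES1 and of the 7 other auxin-related genes that passed the test (horizontal axis) on each control array (grey points) and each array of 48-h light submergence (blue points), with group means as bars and background ranges as bands. WES1 moves to above 10 from control arrays of which 2 lie below background and 1 just above it. EXPA8 moves from above 11 to below background, whereas the other genes are above background on all 6 arrays.

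Another 17 auxin-related genes had no gene name in the array's annotation but appear, with their probe sets, in the study's list of changed genes, of which the part used here holds upregulated genes only. They had thus been selected for their increase on these arrays, and their values are a description that says nothing of the direction of their families. They include 2 SAUR genes, the type that the rule sought and did not find. SAUR36 (At2g45210), which is also known as a senescence-associated gene, was at 5.96, 3.15 and 4.77 in the controls and at 10.32, 9.96 and 9.96 after submergence. That is at least 13.7-fold higher, from below background on every control array, and at least 7.25-fold with the 50th percentile as background. At3g12830, listed in the reference gene table as SAUR72, was at 5.56, 5.96 and 5.67 and then at 8.79, 8.24 and 8.10, or at least 4.19-fold higher (at least 2.22-fold with the 50th percentile as background).

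Transport and turnover genes were on that list too. At2g17500 (PILS5), of the carriers that keep auxin in the endoplasmic reticulum, was at 7.16, 6.94 and 6.71 in the controls and 10.36, 11.07 and 10.31 after submergence, which is 12.5-fold higher. Its paralog At1g76520 (PILS3) was 2.38-fold higher. ABCB4, an auxin transporter best known from roots, was above background on 1 control array and was at 8.23, 9.36 and 9.52 after submergence. ILR1, which releases auxin from its conjugate with leucine, was 3.60-fold higher, at 6.62, 7.37 and 7.14 against 8.77, 9.05 and 8.86. The probe set of ILL5, of the same enzyme family, is of a type that can bind several transcripts, so its 2.66-fold higher signal cannot be assigned to 1 gene. TPL and TPR2, the co-repressors that Aux/IAA proteins recruit, were 2.37-fold and 2.55-fold higher. TAA1, which makes the substrate of the YUC enzymes, was at 6.98, 6.77 and 6.77 in the controls and 7.07, 7.26 and 7.95 after submergence, so that the groups were barely separated. The log2 differences of the 17 genes ran from 0.59 to 5.45.

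**Figure D5:**
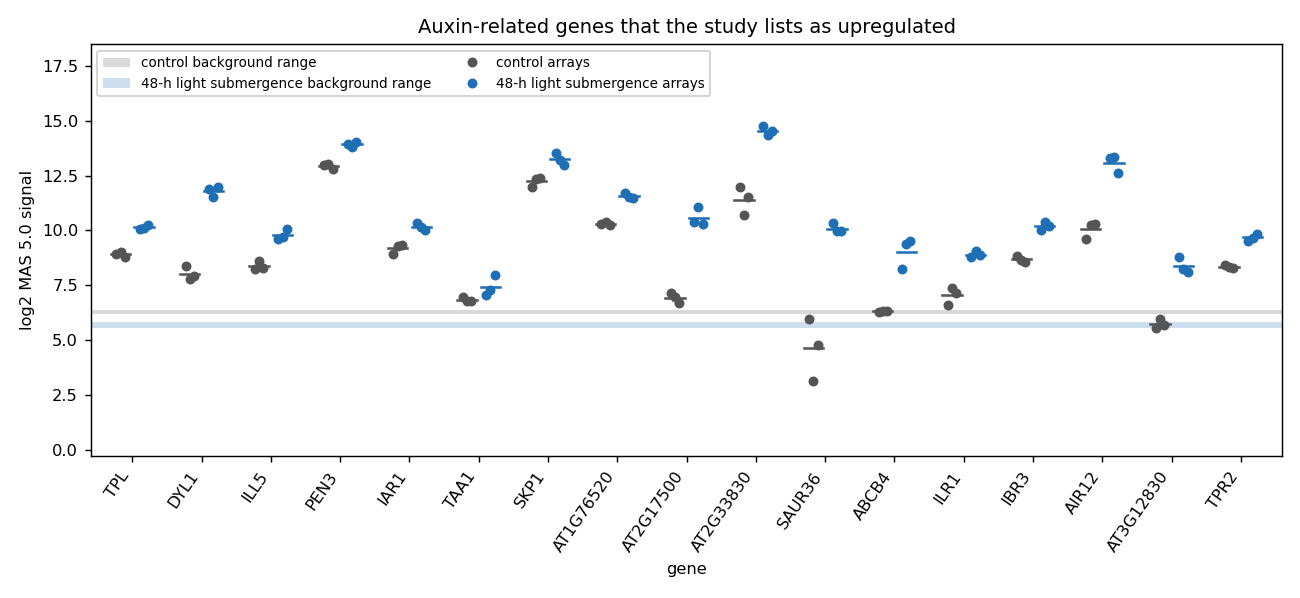
Log2 MAS 5.0 signal (vertical axis) of the 17 auxin-related genes named through the study's list of upregulated genes (horizontal axis), on each control array (grey points) and each array of 48-h light submergence (blue points), with group means as bars and background ranges as bands. All were chosen for their increase, and in each the 3 submerged arrays lie above the 3 control arrays, most narrowly in TAA1.

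The tissue could be checked with few genes, as 4 of 31 listed marker genes had a named probe set, and none of the 7 root, 4 flower and 3 vascular markers did. RCA, the Rubisco activase of photosynthetic leaf cells, was above background on all 6 arrays, with log2 signals of 14.90 to 15.29 in the controls and 13.66 to 14.30 after submergence, and it fell 2.16-fold (adjusted p = 0.00457 from limma). FAMA, a guard cell regulator, was above background on all 6 arrays, and CLV3, of the shoot meristem, on none. ACR4, of the epidermis, was above background on 2 control arrays and on no submerged array (log2 fold change -4.32, adjusted p = 0.00189 from limma). NRT2.1, a nitrate transporter best known from roots and named through the study's list of upregulated genes, was above background on 0 control arrays and on 3 submerged arrays. No marker that fell could enter through that list, so the direction of NRT2.1 says nothing of the tissue. The part of these markers in the results for the auxin genes was not tested, and in whole leaves fewer cells of a type and less transcript per cell cannot be told apart.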

How the data were processed

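RNA of 3 control and 3 light-submerged samples was hybridised to ATH1 arrays, and the samples were grouped by their titles. The labels name leaves and Trizol where the paper names rosettes and the RNeasy kit. The authors' signals are MAS 5.0 summaries, and the deposited values are their log2. The software release was not given in the sources. The values themselves show arrays scaled to a common 2% trimmed mean, at 495 to 496 in linear units. No detection calls or control probe sets were used. The correlations between arrays were 0.909 to 0.924 within conditions and 0.732 to 0.806 between them.

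Genes came from the array's annotation, with 13513 probe sets of 1 gene, 503 of several and 8730 of none, and loci and synonyms from the TAIR10.1 gene table. The names of 17 genes came from the study's list of upregulated genes. All 22746 probe sets were fitted with limma 3.58.1 in R 4.3.3 (moderated variances with a trend, Benjamini-Hochberg adjustment). The same fit was also run on simulated data. The outcome of that run is not given here, so no conclusion about the dim members is drawn from it. The study gives 1.5-fold and a p threshold but no test for the arrays. A gene below background on arrays of its dimmer condition has a fold that is a lower bound, those arrays being set to the background level.

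The members and lists were chosen with earlier results of these data known. The genes to be named were up to 4 changed members per family and direction, the brightest unchanged member, all members of families of 5 or fewer, and up to 2 changed genes per list and direction. IAA20, IAA30, IAA31, IAA33, IAA34, LBD16, LBD29 and the genes named through the study's list were named after their values were seen. Each of these was also tried: no variance trend, other fold limits, an added offset of 32, quantile normalization, removal of the 75th percentile, dropping probe sets that exceeded background on fewer than 3 arrays, omission of single arrays, and the replicate number as a block. Other backgrounds for the bounds were added after seeing the data. Figures were drawn with matplotlib 3.10.9.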

Additional observations from a re-analysis of the deposited data

How the results depend on the processing

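The count of 3 changed members ranged from 2 to 4 over the alternatives, and IAA18 and GH3.3 were among them in each. After the filter on dim probe sets GH3.3 was tested only because of its submerged arrays. The count of changed GH3 genes, 2, fell to 1 after quantile normalization, without the variance trend and after the filter on dim probe sets, where 1 GH3 gene was tested, and ran from 1 to 3 when 1 array was left out. That of the other auxin pathway genes, 7, was 3 at a limit of 2-fold (25%, against 34% of all probe sets), 5 without the variance trend and 6 after quantile normalization. Omitting single arrays gave 5 to 7, the lowest without submergence replicate 2. The counts for Aux/IAA, YUC and WES1 did not move. After quantile normalization the log2 fold change turned to 0.25 for IAA20, 0.09 for IAA30, 0.21 for YUC2 and 0.23 for YUC4, none of which passed under any setting. With 1 array left out, the log2 fold change ran from -1.34 to 0.55 for IAA20, -0.01 to 1.17 for IAA33, -1.30 to 0.44 for YUC4, -2.15 to 0.45 for YUC11 and -2.11 to 0.29 for GH3.1. The log2 bound of GH3.3 was -0.08 as deposited and 0.48 after quantile normalization. That of GH3.9 was 0.72 as deposited, 0.19 after quantile normalization and -0.33 with the 50th percentile as background. The cause of these shifts was not tested. Over all probe sets, 4159 were higher and 5525 lower, and after quantile normalization 4559 and 4792.

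Replicate numbers are shared between the conditions, but deviations from the group means correlated at -0.0124 to 0.0592 between same-numbered arrays. The values thus show little pairing by number, and the labels do not say whether same-numbered samples were handled together. With a replicate block 9339 probe sets passed in place of 9684, 3 members in place of 3, 1 of 7 Aux/IAA, 0 of 4 YUC and 2 of 4 GH3 genes, WES1 and 7 of the other pathway genes. The number of arrays and the signal over background limit all of these values: 12 of the 15 members were above background on fewer than 3 arrays.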
